A study of Mus musculus with 6 samples.

Results

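The cells described here were the 167 cells of the melanoma material that held Mgl2 transcripts together with Plet1 or Epcam transcripts, of 6364 cells kept in all. A cell was a member when it had at least 1 UMI (unique molecular identifier, a counted transcript) of Mgl2 and at least 1 UMI of Plet1 and Epcam added together. It also had to have 0 UMIs of Xcr1, Siglech, Cd3e and Cd3d, fewer than 5 UMIs of the complement genes C1qa, C1qb and C1qc together, and no joint detection of Ccr7 and Fscn1. The members were thus chosen by their measured UMIs, so their levels in the members are a description and no finding. EV gave 120 of the members and WT gave 47.

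The study put lentiviral empty vector (EV) or wild-type Bmal1 (WT), the circadian transcription factor whose gene is Arntl, into YUMM2.1, a mouse melanoma cell line, and sorted the transduced cells on the GFP of the vector. Each group was 1 droplet library of 3 samples marked with antibody hashtags, h1, h7 and h8 for EV and h3, h5 and h9 for WT. The study grew tumors in mice of more than 1 strain and of both sexes, and which of them gave this material is not stated. The labels call the hashtags replicates and name only the cell line and its vector, so whether the vector went into parental or Bmal1-null YUMM2.1 cells, and whether the hashtags were separate mice, is not stated. Another group, labelled bHLH, was not analysed here because its 3 parts were identical to those of WT. Any dendritic cell in this material came from the host and did not carry the vector.

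The EV library held 34232927 UMIs and the WT library 39561569, with a median of 5094 and 7570.5 UMIs per cell kept. Arntl stood at 28.4 CPM (UMIs per 1e+06 UMIs of the same cells) in all EV cells and at 40.2 CPM in all WT cells. Between hashtags it ran from 20.4 to 25.5 CPM in EV and from 20.6 to 40.8 CPM in WT, so that the groups overlapped, and the members themselves held 14 Arntl UMIs in EV and 2 in WT. A single hashtag was called for 81.0% of the EV cells and 67.9% of the WT cells. The libraries shared 5 cell barcodes, of which 1 belonged to a member. Since EV and WT were separate libraries, the effect of the vector and that of the library cannot be told apart.

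Dendritic cells take up antigen, load its peptides on MHC class II molecules and show them to CD4+ T cells. The conventional type 2 subset (cDC2) depends on the transcription factor Irf4, carries Sirpa on its surface and is known for its skin form marked by the galactose-binding lectin Mgl2 (CD301b), which lies in the dermis and primes helper T cells. Epcam, an epithelial adhesion molecule, is best known on Langerhans cells of the epidermis, and Plet1 is a surface protein of epithelial progenitors that some dendritic cells also carry.

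Among the 167 members, Plet1 was detected in 160 and Epcam in 120. Both were seen in 113 members, Plet1 alone in 47 and Epcam alone in 7. The median member had 25 UMIs of Mgl2 (quartiles 11.5 and 38.5, highest 119), 24 of Plet1 (quartiles 6 and 44, highest 108) and 2 of Epcam (quartiles 0 and 5, highest 25). Members with both Plet1 and Epcam had a median of 17528 UMIs in total, whereas those with Plet1 alone had 7805 and those with Epcam alone 7915, so the number of genes seen moved with the depth of the cell.

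**Figure D1:**
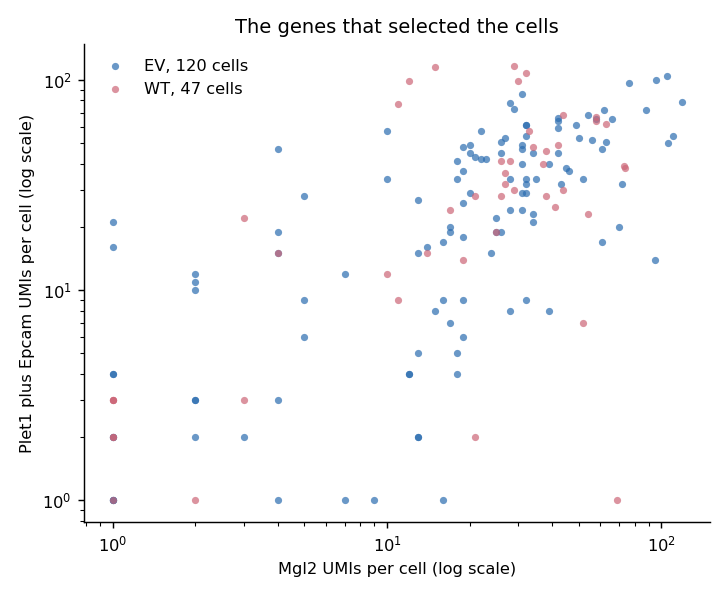
Mgl2 UMIs per cell on the x axis against Plet1 plus Epcam UMIs on the y axis, both on log scales, for 120 EV and 47 WT members. Most points lie far from the lower edges, while 15 members stand at 1 Mgl2 UMI and 10 at 1 UMI of Plet1 plus Epcam.

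The edges of the rule were thinly filled. The 15 members with 1 Mgl2 UMI had a median depth of 3057 UMIs, and 60% of them had Ccl17, 20% Ffar2 and 26.7% Dcstamp. In the 152 members with 2 or more the median depth was 15840 UMIs and the shares were 88.8%, 75% and 71.1%. Just outside, 117 cells met every condition but Mgl2, with a median depth of 16733 UMIs, and only 10.3% of them had Ccl17, 1.71% Ffar2 and 2.56% Dcstamp. The 81 cells that lacked only Plet1 and Epcam had Ccl17 in 30.9% and Ffar2 in 8.64%. Another 43 cells failed through Xcr1 alone, and 93.0% of these had the dendritic growth factor receptor Flt3. Failure through the C1q genes alone held for 23 cells, of which 82.6% had Ccl17 but 4.35% Flt3. In the comparisons below, the 43 cells are part of the Xcr1 class and the 23 part of the C1q-high macrophages.

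The members were compared with 5 other gated classes, namely Xcr1 dendritic cells (131 cells, the cross-presenting type 1 subset), Ccr7 Fscn1 dendritic cells (229, the mature migratory state), Cd209a dendritic cells (87), Siglech dendritic cells (70, the gate for plasmacytoid cells) and C1q-high macrophages (182). The members were the deepest class, with a median of 15044 UMIs and 3784 genes per cell, against 7644 to 12062 UMIs in the others. All differences between classes below are given with no test, since the classes were cut on measured transcripts of the same cells.

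Core dendritic genes were detected in the members. All 11 core dendritic genes were seen in at least 20% of the members. Itgax, which encodes CD11c, was detected in 89.8%, Flt3 in 58.7%, and Zbtb46, a transcription factor of conventional dendritic cells, in 44.3%. Itgax stood at 433 CPM in the members and at 35.3 to 254 CPM in the other dendritic classes. Flt3, at 95.8 CPM, was lower than in each of those, where it stood at 108 to 301 CPM. Zbtb46 stood at 58.8 CPM, within their range of 18.6 to 103 CPM. Of 10 cDC2 genes, with Mgl2 of the rule among them, 8 reached 20% of the members, among them Sirpa in 79.6%, Irf4 in 57.5% and Itgam, which encodes CD11b, in 55.1%. Sirpa stood at 187 CPM in the members and 315 CPM in the C1q-high macrophages. Itgam stood at 92.0 CPM, against 359 CPM in the macrophages and 458 CPM in the Cd209a class. Cd209a was seen in 17.4% and Clec10a in 29.3% of the members. By contrast, the type 1 lectin Clec9a stood at 3.43 CPM in the members and 304 CPM in the Xcr1 class, and none of 11 macrophage genes reached 20% of the members. The macrophage list summed to 74.8 CPM in the members and 7989 CPM in the C1q-high macrophages.

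The Langerhans receptor Cd207 had 0 UMIs in the 167 members, which allows a share of up to 1.80% of cells with a UMI by counting error alone. The keratins Krt5, Krt14 and Krt15 were also at 0. Of the epithelial list only Cdh1, the adhesion molecule E-cadherin, was common, and it was detected in 86.2% of the members at 454 CPM. It was not limited to them, with 80.0% of the Siglech class at 330 CPM and 54.0% of the Cd209a class at 237 CPM. Kit, the stem cell factor receptor, was detected in 72.5% of the members at 216 CPM, whereas in the other classes it stood between 8.99 and 90.3 CPM. The other mast cell genes were carried by 1 member of h7, which held 268 of the 270 UMIs of Cpa3, Mcpt4, Tpsb2 and Ms4a2 found in the members.

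Other cell types left few transcripts in the members. The T or NK, B, fibroblast and melanoma lists summed to 14.5, 1.14, 11.1 and 26.3 CPM, with 0 genes of each in 20% of the members. The monocyte list summed to 578 CPM, against 5162 CPM in the Cd209a class and 7676 CPM in the Siglech class, and its chemokine receptor Ccr2 was detected in 16.2% of the members and 95.4% of the Cd209a cells.

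Ccl17, Ffar2 and Dcstamp were not used by the rule. Ccl17, a chemokine that attracts T cells through Ccr4, was detected in 86.2% of the members, and its summed level in the 6 hashtags was 1504 CPM in h1, 2242 in h7, 3098 in h8, 2772 in h3, 4477 in h5 and 1819 in h9. It was also present in the Ccr7 Fscn1 class, where the hashtags ran from 225 to 2401 CPM, so these classes overlapped. Ffar2, a receptor for short-chain fatty acids, was detected in 70.1% and stood at 179 CPM in h1, 202 in h7, 213 in h8, 258 in h3, 231 in h5 and 266 in h9. All hashtags of the members were above every counted hashtag of the next highest class, the Cd209a cells, at 15.6 to 67.9 CPM. Ranges of a class leave out hashtags with fewer than 5 of its cells. For the Cd209a class these were h5 and h9, with 3 cells each. Dcstamp, which is needed for the fusion of osteoclasts and macrophages, was detected in 67.1% and stood at 313 CPM in h1, 212 in h7, 361 in h8, 253 in h3, 455 in h5 and 230 in h9. The next class, the C1q-high macrophages, reached 174 CPM in its highest hashtag.

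Free RNA in the droplets can give UMIs in cells that do not express a gene, and the members were deep. Cells with a Cd3e or Cd3d UMI served as the reference, with a median of 5290 UMIs against 15044 in the members. Of these 1608 cells, 2.24% had Ccl17, 1.74% Ffar2 and 0.746% Dcstamp. After each cell was thinned to 2000 UMIs, which left 157 members and 1460 reference cells, Ccl17 was seen in 72.0% of the members and 1.10% of the reference cells, Dcstamp in 35.0% and 0.274%, and Ffar2 in 28.0% and 0.685%.

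**Figure D2:**
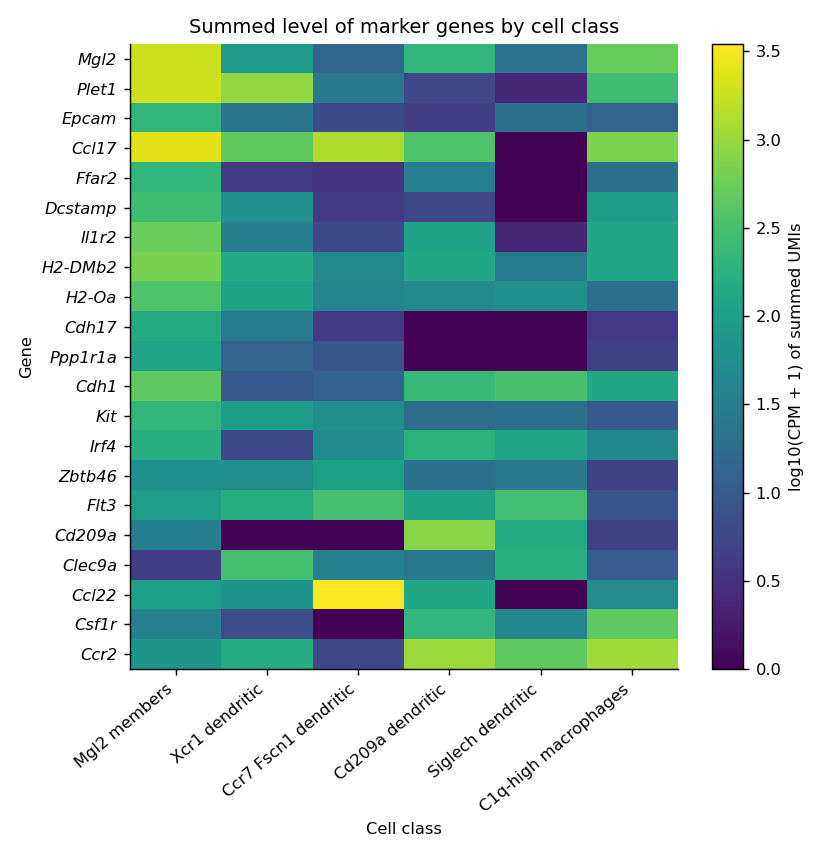
Colour gives log10(CPM + 1) of the summed UMIs of each class (columns) for 21 genes (rows); the first 3 rows are genes of the rule. The upper rows are brightest in the Mgl2 members, Plet1 is also bright in the Xcr1 class, Ccl22 peaks in the Ccr7 Fscn1 class, and Csf1r and Ccr2 in the macrophages.

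The promoters of Mgl2, Plet1, Epcam, Ccl17 and Ffar2 are shown as background. The rule itself required Mgl2 with Plet1 or Epcam, so their presence in the same cells is no finding. Each run holds the 220 bases from -250 to -31 before the RefSeq start on GRCm38.p6, written 5′ to 3′ in the direction of the gene, with matches to searched motifs in capitals.
Mgl2, chr11:70130107-70130326, plus strand: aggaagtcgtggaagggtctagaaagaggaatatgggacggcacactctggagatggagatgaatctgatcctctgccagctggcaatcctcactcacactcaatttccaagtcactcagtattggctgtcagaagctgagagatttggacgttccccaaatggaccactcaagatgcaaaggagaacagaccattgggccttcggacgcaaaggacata
Plet1, chr9:50494275-50494494, plus strand: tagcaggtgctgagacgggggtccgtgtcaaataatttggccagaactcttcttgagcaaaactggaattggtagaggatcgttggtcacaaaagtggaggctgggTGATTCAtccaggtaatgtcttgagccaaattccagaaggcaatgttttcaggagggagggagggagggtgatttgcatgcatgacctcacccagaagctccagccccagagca
Epcam, chr17:87635729-87635948, plus strand: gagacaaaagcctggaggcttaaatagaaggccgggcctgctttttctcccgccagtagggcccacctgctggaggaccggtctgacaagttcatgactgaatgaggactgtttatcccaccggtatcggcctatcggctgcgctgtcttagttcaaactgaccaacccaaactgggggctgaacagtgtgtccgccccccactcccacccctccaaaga
Ccl17, chr8:94810203-94810422, plus strand: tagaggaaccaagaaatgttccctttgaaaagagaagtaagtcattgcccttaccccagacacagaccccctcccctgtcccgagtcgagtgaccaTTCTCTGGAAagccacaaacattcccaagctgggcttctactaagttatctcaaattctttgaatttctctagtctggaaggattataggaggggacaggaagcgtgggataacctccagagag
Ffar2, chr7:30823806-30824025, minus strand: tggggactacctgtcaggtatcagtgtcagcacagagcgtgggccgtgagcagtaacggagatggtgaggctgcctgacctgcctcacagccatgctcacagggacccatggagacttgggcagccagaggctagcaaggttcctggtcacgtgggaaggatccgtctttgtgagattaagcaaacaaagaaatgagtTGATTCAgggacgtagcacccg
The search covered both strands for the AP-1 letters TGANTCA, the STAT palindrome and the ETS-IRF composite motif, and no matches overlapped in these runs. Of 32851 promoters of 250 bases, 6.75% held the first, 5.85% the second and 2.30% the third. In these runs TGATTCA occurred once in Plet1 and once in Ffar2, TTCTCTGGAA once in Ccl17, and no match was found in Mgl2 and Epcam. Ffar2 has several starts in the table, of which 1 is shown. The run before another of them held GGAAAGGAAA, a match to the composite motif. Dcstamp is named only.

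Mgl2 lies at chr11:70130329-70137550 on the plus strand of mm10, upstream of its near-copy Clec10a at chr11:70156197-70170834. Of the windows of 50 bases in Mgl2 transcripts, 12.2% also occur in Clec10a, so the split of reads between this pair is uncertain. Plet1 (chr9:50494525-50505482) overlaps an antisense gene, Plet1os. Il1r2, H2-Oa, Tmem176a, Grpel1, Fgl2 and Zfp36, described further on, also overlap a gene on the other strand, and no source used here gives the strand setting of the counting. Plet1 was not limited to the members, since it was detected in 73.3% of the Xcr1 class at 916 CPM, against 95.8% and 1854 CPM in the members. Mgl2 was detected in 45.1% of the C1q-high macrophages at 521 CPM, against 1820 CPM in the members. The Xcr1 class and the macrophages include the cells that failed the member rule through Xcr1 or C1q alone. Epcam (chr17:87635979-87651129) stood at 217 CPM in the members and at 3.49 to 22.8 CPM in the other classes.

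Apart from the genes of the rule, 20 genes were taken by the ratio of their level in the members to the highest other class. For 12 of these every hashtag of the members was above every hashtag of every other class with 5 or more cells. That count is a description and no finding, because the genes were chosen by the same difference in the same cells. Of the 20, H2-DMb2 and H2-Oa belong to the MHC class II path. H2-DMb2, a subunit of the H2-DM editor of class II peptides, stood at 660 CPM in the members and at 146 CPM or less elsewhere, and its hashtags ran from 546 to 823 CPM. H2-Oa, a subunit of the H2-O brake on that editor, stood at 368 CPM and at 108 CPM or less elsewhere. The partner chains did not follow: H2-DMb1 stood at 359 CPM in the members and 733 CPM in the Cd209a class, and H2-Ob at 121 CPM in the members and 101 CPM in the Xcr1 class, with overlapping hashtags. Of the 12 measured genes of the MHC class II path, 9 were highest in the members, and their sum was 46382 CPM, against 30090 CPM in the C1q-high macrophages and 29523 CPM in the Xcr1 class. H2-Ab1, a class II chain, was detected in 98.8% of the members at 9042 CPM.

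Among receptors, Il1r2, the decoy receptor that binds IL-1 without signalling, stood at 543 CPM in the members, against 128 CPM in the next class. Its level was 482 CPM in h1, 419 in h7, 670 in h8, 534 in h3, 1264 in h5 and 381 in h9, so that h5 stood high. Il18r1, a chain of the IL-18 receptor, was at 28.2 CPM and at most 3.87 CPM elsewhere. The GM-CSF receptor chains Csf2rb and Csf2ra were detected in 87.4% and 85.6% of the members. Csf2rb ran from 397 to 708 CPM over the member hashtags and from 268 to 627 CPM over those of the Cd209a class other than h5 and h9. Csf2ra ran from 182 to 231 CPM in the members and from 149 to 232 CPM in the macrophages, so both overlapped. Csf1r, the macrophage growth factor receptor, was detected in 25.1%, against 87.9% of the C1q-high macrophages. Il1b, the IL-1 cytokine itself, stood at 2354 CPM in the members, near the 2551 CPM of the macrophages and far from the 163 CPM of the Xcr1 class.

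Further leading genes have more varied roles. Ppp1r1a, a regulator of protein phosphatase 1, stood at 118 CPM and 12.9 CPM in the next class. Cdh17, a cadherin of intestinal epithelium, stood at 149 CPM against 26.7 CPM. Ltb, the lymphotoxin chain that signals through the lymphotoxin receptor, was detected in 59.9% of the members at 125 CPM. It was seen in 76.8% of the Cd3 reference cells, and after thinning in 22.3% of the members and 53.4% of those cells. Tcea3, a transcription elongation factor, stood at 172 CPM and B4galt6, a glycolipid-making galactosyltransferase, at 288 CPM. The lectin Clec4n (Dectin-2) was detected in 81.4% of the members at 360 CPM, near the 324 CPM of the macrophages, while the 4 other dendritic classes held at most 25.6 CPM. Clec9a, the RhoA exchange factor Net1 (13.7 CPM against 576 CPM in the Ccr7 Fscn1 class) and the endocytic receptor Lrp1 (14.5 CPM against 195 CPM in the macrophages) were among the 10 genes lowest against the other dendritic classes.

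Of 14 dendritic transcription factors, 2 were highest in the members and 1 was lowest. Irf8, which directs the type 1 and plasmacytoid lines, stood at 104 CPM in the members, the lowest of the 6 classes, and at 1670 CPM in the Xcr1 class. Irf4 stood at 161 CPM in the members, 185 CPM in the Cd209a class and 5.16 CPM in the Xcr1 class. Batf3, a factor of the type 1 line, stood at 126 CPM in the members and 143 CPM in the Xcr1 class. Ahr and Runx3, both known from Langerhans cells, were detected in 83.2% and 89.2% of the members, but Ahr was at 218 CPM in the Xcr1 class and Runx3 at 433 CPM in the Cd209a class, so neither set the members apart. The mature-state list summed to 665 CPM in the members and 11138 CPM in the Ccr7 Fscn1 class, and its Ccl22 stood at 99.6 and 3485 CPM. Still, 6 of its 10 genes were seen in at least 20% of the members. Cd86 overlapped, at 191 to 388 CPM over the member hashtags and 204 to 341 CPM over those of the Ccr7 Fscn1 class. The list includes Ccr7 and Fscn1, whose joint detection the rule excluded.

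The members differed among themselves, and those with an Epcam UMI were also deeper, at a median of 17000.5 UMIs against 7805 without. What part depth had in the differences was not tested. Among the 120 with an Epcam UMI, Ffar2 was seen in 81.7% and stood at 221 CPM. Among the 47 without, the values were 40.4% and 163 CPM. Cdh1 was at 480 and 331 CPM and Dcstamp at 299 and 179 CPM, while Mgl2 was almost level, at 1815 and 1843 CPM. In the other direction, Ccr2 stood at 46.6 CPM with and 199 CPM without an Epcam UMI, and Csf1r at 24.0 and 90.5 CPM. A UMI of the cycling genes Mki67 or Top2a was found in 48 members, or 28.7% (95% exact binomial interval 22.0 to 36.2). After thinning the share was 9.55%, against 22.9% in the Xcr1 class and 0 to 4.88% in the 4 other classes.

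Whether WT tumor cells came with a different share of these host cells was compared over the hashtags. Of the cells with exactly 1 hashtag, the members made up 1.92% in h1 (27 of 1403), 6.32% in h7 (44 of 696) and 2.85% in h8 (32 of 1123) of EV. In WT the share was 3.00% in h3 (24 of 800), 2.02% in h5 (10 of 495) and 2.15% in h9 (7 of 326). The sample h7 stood high and the groups overlapped. The mean was 3.70% ± 2.32 in EV and 2.39% ± 0.533 in WT (SD, n = 3 each), a difference of -1.31 percentage points (two-sided exact permutation p = 0.7, adjusted p = 0.7 over 4 comparisons). With 3 against 3 samples the exact permutation test cannot go below p = 0.1. Without h7 the difference was 0.00217 points, and without h1 it was -2.20 points.

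**Figure D3:**
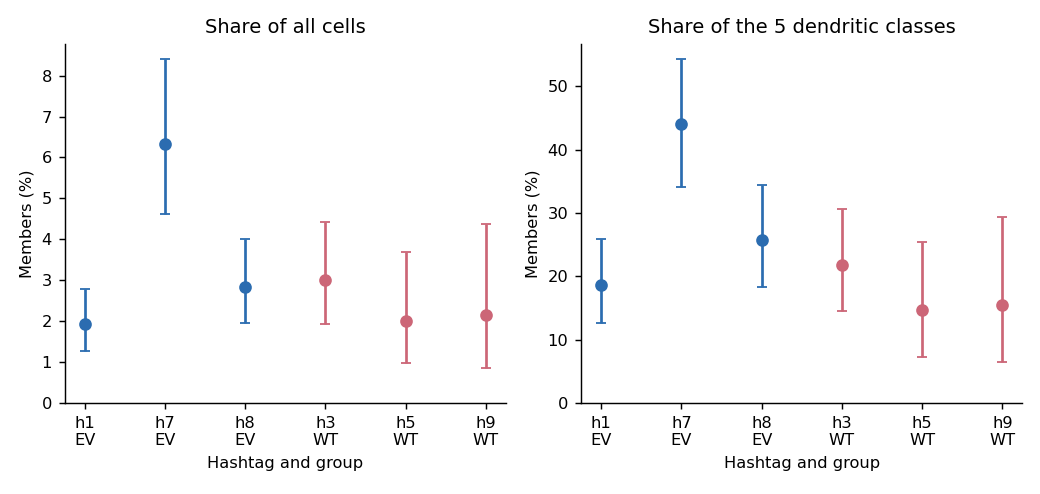
Members as a percentage of all cells with that hashtag (left) and of the 5 dendritic classes (right), with 95% exact binomial intervals that cover counting error only. The EV sample h7, at 6.32% and 44.0%, lies above the other 5 samples in both panels.

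Within the 5 dendritic classes the members made up 18.6% in h1, 44.0% in h7 and 25.8% in h8 of EV, and 21.8% in h3, 14.7% in h5 and 15.6% in h9 of WT. The means were 29.5% ± 13.1 and 17.4% ± 3.88 (SD, n = 3 each), a difference of -12.1 points (two-sided exact permutation p = 0.2, adjusted p = 0.4), which fell to -4.85 points without h7. In h7 the Xcr1 class held 2 cells, whereas h1 and h8 held 17 and 16 and the WT samples 17 to 33. After all cells were thinned to 2000 UMIs the share of cells was 3.78% ± 2.61 in EV and 2.52% ± 0.204 in WT (SD, n = 3 each, exact permutation p = 0.7). The median member had 13841, 16842 and 14241 UMIs in h1, h7 and h8 and 19098, 14308 and 17839 in h3, h5 and h9 (difference 2107 UMIs, exact permutation p = 0.2, adjusted p = 0.4). Members with several hashtags (15 in EV and 4 in WT) or none (2 and 2) were left out of these comparisons and of the gene tests.

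No gene of the members passed the threshold between WT and EV among genes of at least 50 UMIs, while 33 passed when every gene was tested. The UMIs of the members were summed per hashtag, 103 cells in EV and 41 in WT, and edgeR's quasi-likelihood test was run on the 5639 genes with at least 50 UMIs. The count at a Benjamini-Hochberg adjusted p under 0.05 was 0 (0%), and the smallest adjusted p was 0.873. At an unadjusted p under 0.05 there were 120 genes higher in WT (2.13%) and 192 lower (3.4%). DESeq2 also called 0 genes, with 131 at an unadjusted p under 0.05, and limma called 0, with 347. Of the 33 genes called by edgeR with no filter on UMIs, 28 were among the 5639, and 10 of the 12 genes named by their p were called there. Among the 33 were Cpa3, Mcpt4 and Tpsb2, whose UMIs came almost wholly from 1 member. For Fabp5, Spp1 and Lyz2, which were also called, 1 cell held 58.0%, 68.2% and 51.2% of the UMIs. For Zfp36, Mt1 and Fgl2, called as well, the richest cell held 4.56% or less. The hashtags of WT lay wholly above those of EV for 268 genes (4.75%) and wholly below for 409 (7.25%). The median log2 fold change over all genes tested was -0.03, with a median standard error of 0.34.

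The marker genes of these cells showed small differences. Mgl2 stood at 1597, 1995 and 2139 CPM in h1, h7 and h8 and at 1833, 1704 and 1251 CPM in h3, h5 and h9, so that the groups overlapped (WT over EV -0.25 ± 0.17 on the log2 scale, SE). Plet1 had 1855 ± 363 and 2091 ± 689 CPM and Epcam 227 ± 56.3 and 235 ± 65.6 CPM (SD, n = 3 each), with log2 fold changes of 0.16 ± 0.21 and 0.01 ± 0.25. Ccl17 differed by 0.40 ± 0.29, Dcstamp by 0.06 ± 0.27 and Ffar2 by 0.35 ± 0.19 on the log2 scale. Of the 6 markers, Ffar2 alone had hashtags that did not overlap, with adjusted p = 0.905 in edgeR. It lay wholly higher in WT, as 4.75% of all genes did.

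The 6 genes of smallest unadjusted p in each direction are described although none passed. Tspan13, a tetraspanin, stood at 132, 140 and 154 CPM in h1, h7 and h8 and at 244, 361 and 316 CPM in h3, h5 and h9. Its log2 fold change was 1.08 ± 0.21 (SE), with an adjusted p of 0.873 in edgeR. A single cell held 31 of the 50 UMIs of h5, and without it h5 stood at 167 CPM, still above EV. Cyp7b1, an oxysterol hydroxylase, stood at 19.6, 17.5 and 35.9 CPM in EV and at 54.3, 137 and 101 CPM in WT, and the log2 fold change was 1.88 ± 0.42. It rested on 96 UMIs, and all 19 of h5 came from 1 cell, without which h5 was at 0. The membrane protein gene Tmem176a stood at 118, 111 and 57.1 CPM in EV and 190, 260 and 208 CPM in WT, but 49 of the 84 UMIs of h3 came from 1 cell, and without it h3 stood at 83.3 CPM, within the EV range. Its log2 value was 1.17 ± 0.28 in edgeR and 0.62 in limma on CPM averaged over cells.

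Mt1, a metal-binding metallothionein, stood at 970, 485 and 830 CPM in EV and at 1165, 1415 and 1718 CPM in WT, and Grpel1, a mitochondrial co-chaperone, had a log2 fold change of 1.16 ± 0.32. The groups did not overlap for these 5 genes, but with the cell richest in each gene left out, a choice made after the values were seen, this held for Tspan13, Mt1 and Grpel1 alone. Fabp5, a fatty acid carrier, did overlap: it stood at 56.3, 51.1 and 12.7 CPM in EV and 111, 1264 and 7.19 CPM in WT, and 171 of its 295 UMIs came from 1 cell of h5.

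Among those lower in WT, Zfp36, which speeds the decay of cytokine mRNAs, stood at 2072, 1739 and 1287 CPM in EV and at 935, 1025 and 877 CPM in WT (log2 fold change -0.85 ± 0.17). Egr1, an immediate early transcription factor, stood at 1215, 1031 and 822 CPM in EV and 672, 578 and 661 CPM in WT. Fgl2, a secreted immunoregulatory protein of the fibrinogen family, stood at 1249, 1191 and 1481 CPM in EV and 1002, 693 and 741 CPM in WT. Celf1, an RNA-binding splicing factor, stood at 162, 155 and 125 CPM in EV and 74.7, 79.4 and 64.7 CPM in WT. In all of these the WT samples lay below every EV sample.

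Cd209a, the lectin that marks another cDC2 form, stood at 80.8, 27.4 and 48.6 CPM in EV and at 9.05, 7.22 and 0 CPM in WT, and the log2 fold change was -2.81 ± 0.67. It was seen in 27 of the 144 members with 1 hashtag, and 23 of its 83 UMIs came from 1 cell of h1, without which h1 stood at 25.5 CPM, still above WT. The Cd209a class itself, which was gated apart from the members, held 36, 11 and 20 cells in h1, h7 and h8 and 6, 3 and 3 cells in h3, h5 and h9, and its part in the members' Cd209a and Clec10a values was not tested. Ccl3, a chemokine for monocytes and T cells, stood at 34.3, 64.8 and 29.6 CPM in EV and at 9.05, 0 and 0 CPM in WT, and 47 of its 84 UMIs came from 1 cell of h7, without which h7 stood at 6.37 CPM and the groups overlapped.

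**Figure D4:**
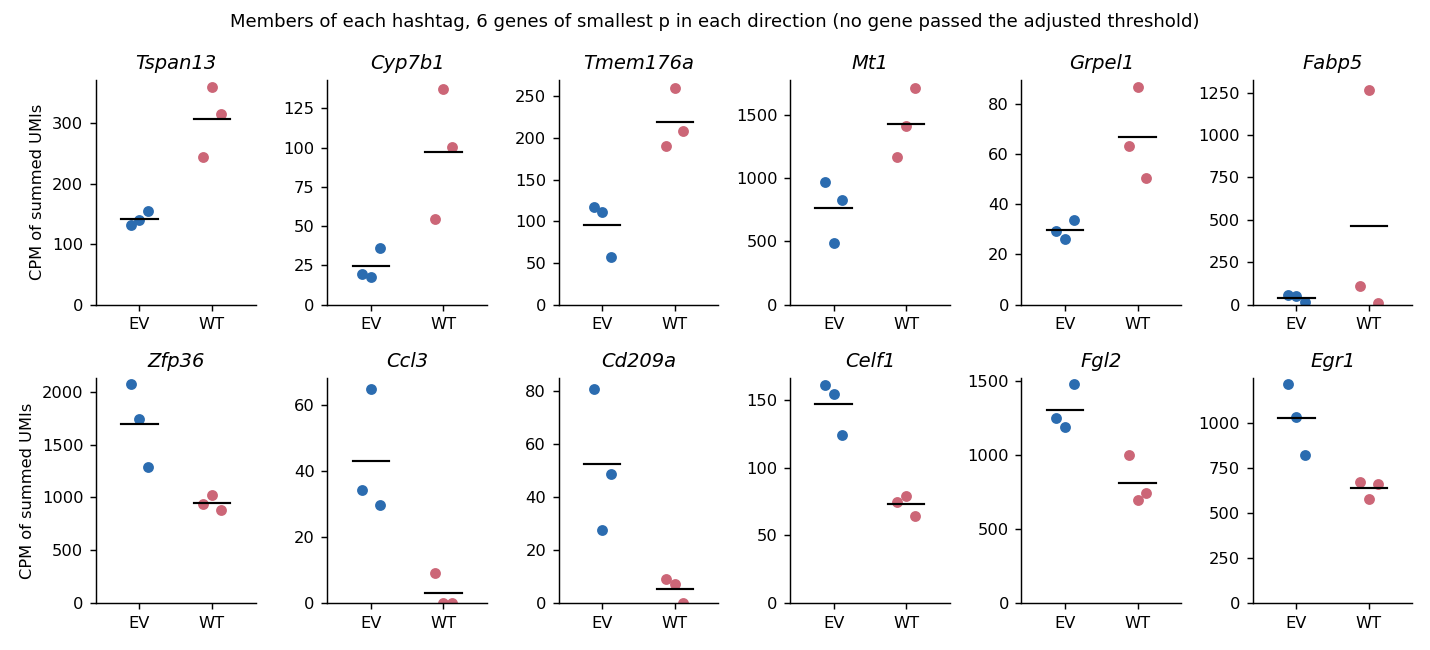
CPM of the summed UMIs of the members in each hashtag (points; blue EV, red WT) with the group mean (line), for the 6 genes of smallest unadjusted p in each direction. Fabp5 has 1 WT point at 1264 CPM with the others at 111 CPM or less, while the other 11 genes show no overlap and none passed the adjusted threshold.

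Gene groups were read against these shares. Of the 11 stress and immediate early genes tested, 0 were called. Fos, Jun, Egr1 and Ier2 had every WT hashtag below every EV hashtag, 4 of 11 genes where 7.25% of all genes did. The immediate early genes Junb and Atf3 did not, with log2 fold changes of -0.08 and 0.12. Fos, a subunit of AP-1, stood at 1369, 996 and 997 CPM in EV and 724, 498 and 935 CPM in WT, a log2 fold change of -0.64 ± 0.21. In the C1q-high macrophages the log2 fold changes of Fos, Jun, Egr1 and Ier2 were -0.52, -0.57, -0.12 and 0.16. The heat shock genes of the list had positive values, such as 0.33 ± 0.24 for Hspa8 and 0.95 ± 0.39 for Dnajb1, and the median of the whole list was 0.12.

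Of the 8 cDC2 genes tested besides Mgl2 of the rule, 0 were called and all 8 had negative log2 values, where 3051 of all 5639 genes did, with a median of -0.22. Clec10a had a mean of 114 ± 48.5 CPM in EV and 58.0 ± 28.7 CPM in WT. Cd24a, a surface glycoprotein, stood at 490, 495 and 440 CPM in EV and at 380, 354 and 395 CPM in WT, and with Cd209a made the 2 of 8 that lay wholly lower in WT, where 7.25% of all genes did. The core dendritic list had 0 of 11 called and a median of -0.07. Its class II chains were level, with H2-Ab1 at 9339 ± 365 CPM in EV and 9267 ± 479 CPM in WT.

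**Figure D5:**
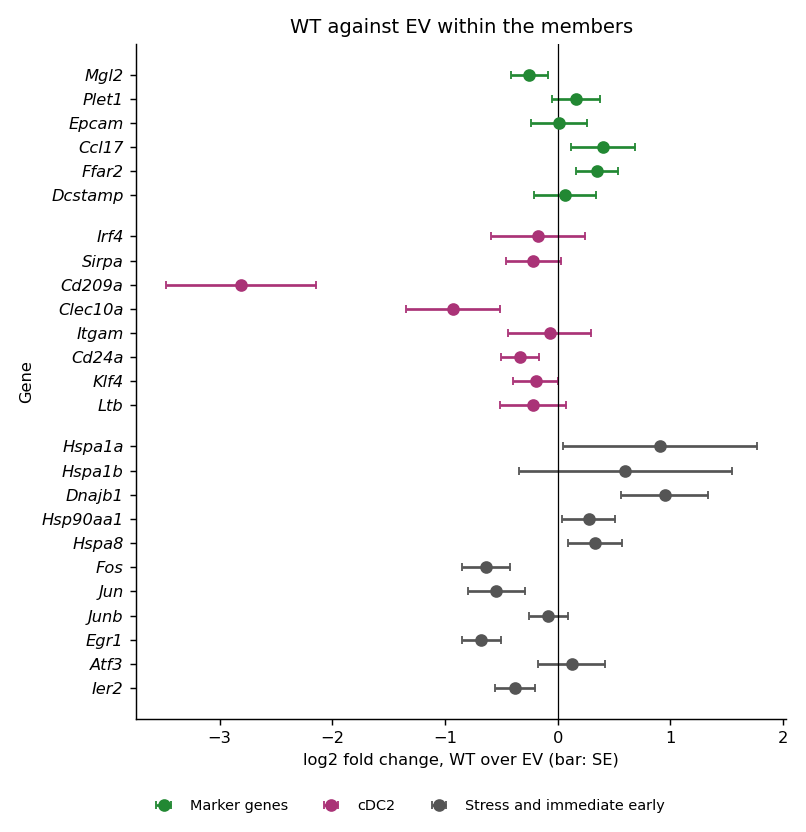
log2 fold change of WT over EV in the members with its standard error, for the marker genes (green), the other cDC2 genes tested (purple) and the stress and immediate early genes (grey). All cDC2 points lie left of 0, Cd209a farthest at -2.81. Fos, Jun, Egr1 and Ier2 lie left of 0, Junb lies near 0, and Atf3 and the heat shock genes lie right of 0. No gene passed the adjusted threshold.

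The other lists likewise had 0 genes called. In the MHC class II path 4 of 12 genes had higher and 8 lower values, with a median of -0.04. The interferon-stimulated list had 10 of 12 lower and a median of -0.39, with 0 genes outside overlap and wide spread, as in Isg15 at 61.2, 74.8 and 290 CPM in EV and 226, 86.7 and 359 CPM in WT. Among the cytokines, Il1b had a mean of 2543 ± 552 CPM in EV and 1703 ± 554 CPM in WT, a log2 fold change of -0.59 ± 0.21. The genes responsive to IL-4, IL-13 and GM-CSF had 7 of 8 higher and a median of 0.34, with 0 outside overlap, and the suppressor of cytokine signalling Cish was the 1 of them under an unadjusted p of 0.05 (log2 fold change 0.89 ± 0.39). Of the cytokine receptors, Crlf2, the receptor for the epithelial cytokine TSLP, was the 1 of 12 that lay wholly higher in WT, near the 4.75% of all genes, at 56.3, 86.0 and 84.5 CPM in EV and 88.3, 116 and 165 CPM in WT.

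The remaining lists had medians of 0.06 for costimulation and checkpoint ligands, 0.19 for chemokines, -0.20 for chemokine receptors, -0.63 for C-type lectins and -0.13 for dendritic transcription factors. Among the costimulatory genes Cd40 had its WT samples, at 27.2, 21.7 and 35.9 CPM, below those of EV, at 49.0, 47.4 and 50.7 CPM. It was the 1 of 9 tested genes of its list that lay wholly lower in WT, where 7.25% of all genes did. Adhesion genes had a median of -0.02, cell fusion genes 0.07, hypoxia genes 0.11 and cell cycle genes -0.43, and of the clock genes 5 of 19 were deep enough to test, with a median of 0.14. The adhesion, C-type lectin and IL-4 lists include genes of the rule.

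Whether the difference between WT and EV was another one in the members than in the C1q-high macrophages was tested as an interaction over 7553 genes. The count at an adjusted p under 0.05 was 0 (0%) in edgeR, and 353 genes (4.67%) had an unadjusted p under 0.05. The smallest adjusted p in edgeR was 0.632, for Cd24a, whose log2 fold change was -0.33 in the members and 1.95 in the macrophages. For Zfp36 the values were -0.85 and -0.53 and for Mt1 0.91 and 1.25, and for Tspan13 they were 1.08 and -0.40 (adjusted p = 0.987 in edgeR).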

How the data were processed

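Per the labels, droplets were made with the 10x Genomics single cell 3′ kit and read with hashtag antibodies. The authors deposited raw UMI counts per gene and hashtag for each library, aligned to mm10, and the file headers name Cell Ranger 6.1.2. Cells with at least 200 genes and at most 20% mitochondrial UMIs were kept. A hashtag was called by a Gaussian mixture of 2 components per tag, and cells with several tags, which include doublets between samples, were left out of the tests; no doublet caller was run, so doublets within a sample remain. CPM is the summed UMIs of a gene over all UMIs of those cells, times 1e+06, without gene length. Classes were gated on UMIs, with Cd209a cells at 1 or more Cd209a UMIs and Siglech cells at 2 or more of Siglech plus Ccr9.

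WT and EV were compared with edgeR 4.0.16 (quasi-likelihood) on UMIs summed per hashtag, DESeq2 1.42.0 and limma 3.58.1 as alternatives, and exact permutation tests with scipy 1.17.1. The hashtag was a block in the interaction fit. The p-values measure the spread between hashtag samples, which the labels do not say are separate animals. The tests were checked on simulated data. Members, gates and gene lists were chosen with earlier results of these data known. Named genes were those of the rule and the markers, the 20 highest (at least 50 UMIs, 5 CPM added) and 10 lowest by ratio between classes, the 6 of smallest p in each direction, and genes of the lists; examples within the lists were picked with their values known. Gene positions are from GENCODE M21, which held 30934 of 31053 identifiers. Of the list genes, Clec7a and Ifi30 were not matched.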

Additional observations from a re-analysis of the deposited data

How the results depend on the processing

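With 3 hashtags per group and as few as 7 members in one, differences between EV and WT are known only roughly. The member share of cells had the same sign under every alternative except without h7, with the difference ranging from -2.20 to 0.00217 points when 1 sample was left out. After thinning the range was -2.29 to 0.211 points, above 0 without h7. The share of the dendritic classes ranged from -17.5 to -4.85 points and the median depth from 1099 to 3494 UMIs. The cause was not tested. The count of genes called in the members was 0 under 14 of the 15 alternatives, among them each left-out sample and, added after the data were seen, the members without mast cell genes. With every gene of at least 1 UMI tested it was 33, of which 14 were higher in WT and some rested largely on 1 cell. Of the 12 genes named by their p, 10 passed there, Fabp5 among them. All kept their direction in the 175 alternatives where they were tested, which did not include Ccl3 without h7. The 12 were chosen by their p in these same data, so the kept direction was largely fixed in advance. The interaction count ranged from 0 to 1 when 1 sample was left out; the 1, without h3, was Ifitm1 (log2 difference 4.56). No paired analysis was possible because the groups share no hashtag numbers.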
